A study of Saccharomyces cerevisiae with 48 samples.

Results

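The bins described here are 598 of the 11018 eligible 1-kb bins of the Saccharomyces cerevisiae genome. They belong to the early-replicating bins in cells without over-expression of 6 limiting replication factors, and they fell below the mean copy number of the sample in cells with it. The relative copy number r of a bin is its copy number ratio (a timepoint against G1 cells of that strain) divided by the bulk DNA content of that sample, so that r = 1.0 is a bin with the mean copy number of its sample. The bins were selected on the measured values themselves. The value a is the mean r at 20 and 25 min in the 2 strains without over-expression, and b is the mean r at 15 and 20 min in the 2 strains with it. A bin was chosen by an a at or above the 75th percentile of eligible bins, which was 1.08, and a b below 1.0. Eligible bins have all 8 values and lie outside the regions of the deleted origins on chromosomes X and VIII. Of 11338 bins in all, 2755 eligible bins were early by the limit on a, and the 2157 of these that kept a b of 1.0 or more are called the other early bins.

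DNA replication was measured by whole-genome sequencing (Repli-seq) in 4 strains. Each strain was sampled once in G1 and at 11 times after release, the first at 5 min and the last at 60 min. All strains are W303 MATa carrying ade2-1, ura3-1, trp1-1, can1-100, rad5-535, leu2-3, 112 and his3-11, 15, and all lack SML1, the inhibitor of ribonucleotide reductase. In the strains here called sml1∆, SML1 is replaced by URA3. In the SSDDCS strains it is replaced by HphNT, and these strains carry additional copies of Sld7 and Cdc45 at leu2, SLD3-A and Dbf4-A at his3, and Sld2 and Dpb11 at trp1, each pair driven by the galactose-inducible GAL1-10 promoter. One strain of each kind lacks the origins ARS1008 and ARS1009 on chromosome X, and the other lacks ARS816 and ARS818 on chromosome VIII. Cells of all 4 strains grew in raffinose medium, were arrested in G1 with alpha factor, received galactose in the arrest and were released into galactose. The inserted copies carry the markers LEU2, HIS3 and TRP1. These markers and the marker at SML1 thus differ together with SSDDCS, and their contributions cannot be told apart.

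Budding yeast replicates from short defined origins (autonomously replicating sequences, ARS) that are licensed in G1 and fire in a reproducible order in S-phase, because the factors that fire them are limiting. Sld2, Sld3, Dpb11 and Cdc45, with Sld7, act in the assembly of the replicative helicase at licensed origins, and Dbf4 activates the kinase Cdc7 that phosphorylates the Mcm2-7 complex. Forks move outward from each origin, so DNA between origins is copied passively and copy number during S-phase falls with the distance from the firing origin. Centromeres of budding yeast replicate early in the wild type, since the kinetochore recruits Dbf4 to the origins around them.

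Each strain had 1 time course. No test of a difference between conditions was made, because the bins were chosen on these values, and with 2 SSDDCS strains against 2 sml1∆ strains an exact permutation test (two-sided) cannot give a p below 0.333. The shares and medians below describe these cultures. The files held between 11312 and 11328 bins per timepoint and no read counts, so the depth is unknown. Bulk DNA content was 1.0 to 1.14 at 5 min and 1.99 to 2.0 at 60 min. The 8 samples of the rule were not at the same stage: bulk content was 1.45 and 1.62 at 20 and 25 min in sml1∆ ars1008∆ ars1009∆, 1.29 and 1.53 in sml1∆ ars816∆ ars818∆, 1.48 and 1.64 at 15 and 20 min in SSDDCS ars1008∆ ars1009∆, and 1.25 and 1.49 in SSDDCS ars816∆ ars818∆.

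The longest unbroken run of member bins covered 10 kb of chromosome X between the origins ARS1014 and ARS1015, and its last bin holds the centromere CEN10. The sequences below show the elements that bound or lie within the longest runs (reference sequence from RefSeq assembly R64, the same coordinates as sacCer3). Each origin is shown as the match to the ARS consensus sequence, where the origin recognition complex binds, in capitals with 20 bases on each side, read 5′ to 3′ on the strand of the match. The motif was searched on both strands, 35.2% of the 352 annotated origins held a match, and 6.19% of eligible bins did. ARS1014 (chrX:417363-417413, minus strand) and ARS1015 (chrX:442698-442748, minus strand) flank the run of 10 bins. ARS507 (chrV:59437-59487, minus strand) lies left of a run of 8 bins, ARS209 (chrII:255051-255101, minus strand) left of the run over the galactose genes, and ARS606 (chrVI:167706-167756, minus strand) right of the run around CEN6. The centromeres CEN10 (chrX:436307-436425, minus strand) and CEN6 (chrVI:148510-148627, plus strand) lie inside runs. In them the capitals mark TCACNTG, the core of element I, and CCGAA in element III, the elements bound by the kinetochore. Searched on both strands, 29.7% and 68.0% of eligible bins held these short motifs.
ARS1014: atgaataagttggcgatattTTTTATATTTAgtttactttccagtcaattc
ARS1015: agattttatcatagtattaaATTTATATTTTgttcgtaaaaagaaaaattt
ARS507: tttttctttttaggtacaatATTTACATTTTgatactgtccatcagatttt
ARS209: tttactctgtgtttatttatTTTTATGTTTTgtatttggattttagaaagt
ARS606: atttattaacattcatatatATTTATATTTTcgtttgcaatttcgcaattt
CEN10: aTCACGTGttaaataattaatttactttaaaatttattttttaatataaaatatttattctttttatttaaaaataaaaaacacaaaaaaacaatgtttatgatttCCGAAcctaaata
CEN6: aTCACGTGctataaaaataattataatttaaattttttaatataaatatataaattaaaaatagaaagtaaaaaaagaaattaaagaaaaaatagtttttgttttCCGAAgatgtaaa

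The values used for the choice were as follows. Member bins had a median a of 1.13 (quartiles 1.10 and 1.17, highest 1.33) and a median b of 0.966 (quartiles 0.938 and 0.986, lowest 0.827). The other early bins had medians of 1.15 and 1.08. Of all eligible bins, 49.5% had a b below 1.0, so the limit on b lies close to the middle of the genome. Among the members, 217 had a b under 0.95 and 48 a b under 0.9. In 211 members (35.3%) all 4 SSDDCS values were below 1.0, and in 503 (84.1%) all 4 sml1∆ values were at 1.0 or above.

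Many members lay close to the limits. A b within 0.02 of the limit was found in 195 members (32.6%) and an a within 0.02 of its limit in 146 (24.4%). The 3 members nearest the limit on a were bins at 323001 on XV, 186001 on II and 289001 on XI, all with an a of 1.08, and the 3 bins just outside it, at 452001 on V, 355001 on IX and 334001 on XI, also had an a of 1.08. The bin at 355001 on IX holds the centromere of that chromosome. The members nearest the limit on b were the bins at 83001 on III, 255001 on XIII and 288001 on VIII, and the 3 just outside were the bins at 768001 on XVI, 131001 on XIII and 895001 on XV. All 6 had a b of 1.00 after rounding.

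**Figure D1:**
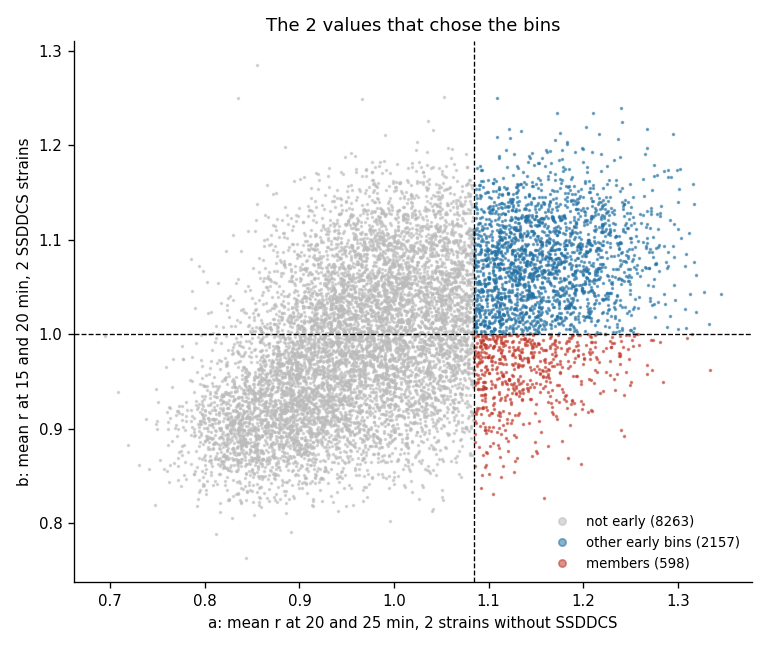
Each point is 1 eligible 1-kb bin, with a (mean r at 20 and 25 min in the 2 strains without SSDDCS) on the x axis and b (mean r at 15 and 20 min in the 2 SSDDCS strains) on the y axis, and dashed lines at the limits. The 598 members fill the lower right corner next to the 2157 other early bins, with no gap at either limit.

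The time courses show what the rule did not read. In sml1∆ ars1008∆ ars1009∆ the median r of the members was 1.02 at 5 min, 0.978 at 10 min and 1.04 at 15 min, reached 1.20 at the rule's 20 min, and then declined through 1.11 at 30 min and 1.04 at 40 min to 1.02 at 60 min. In sml1∆ ars816∆ ars818∆ it was 1.01 at 15 min, 1.06 at 20 min, 1.13 at both 25 and 30 min and 1.11 at 35 min. The members therefore came up after the other early bins in these strains too, whose medians at 15 min were already 1.13 and 1.04. By 30 min the classes had met, with 1.09 and 1.14 in the other early bins.

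With SSDDCS the members took a different course. In SSDDCS ars1008∆ ars1009∆ the median r fell from 0.983 at 5 min to 0.963 at 10 min and 0.938 at 15 min, and rose to 0.985 at 20 min and 1.01 at 25 min. In SSDDCS ars816∆ ars818∆ it was 0.989, 0.981, 0.941, 0.977 and 1.01 at the same times. At 10 min, which the rule did not use, the other early bins stood at 1.03 and 1.01. At 25 min, also outside the rule, 249 members (41.6%) were below 1.0 in the ars1008∆ ars1009∆ strain, beside 42.5% of all eligible bins and 201 of the other early bins (9.32%). In the ars816∆ ars818∆ strain these values were 260 members (43.5%), 42.7% and 141 (6.54%). The other early bins had medians of 1.07 and 1.08 at this time.

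**Figure D2:**
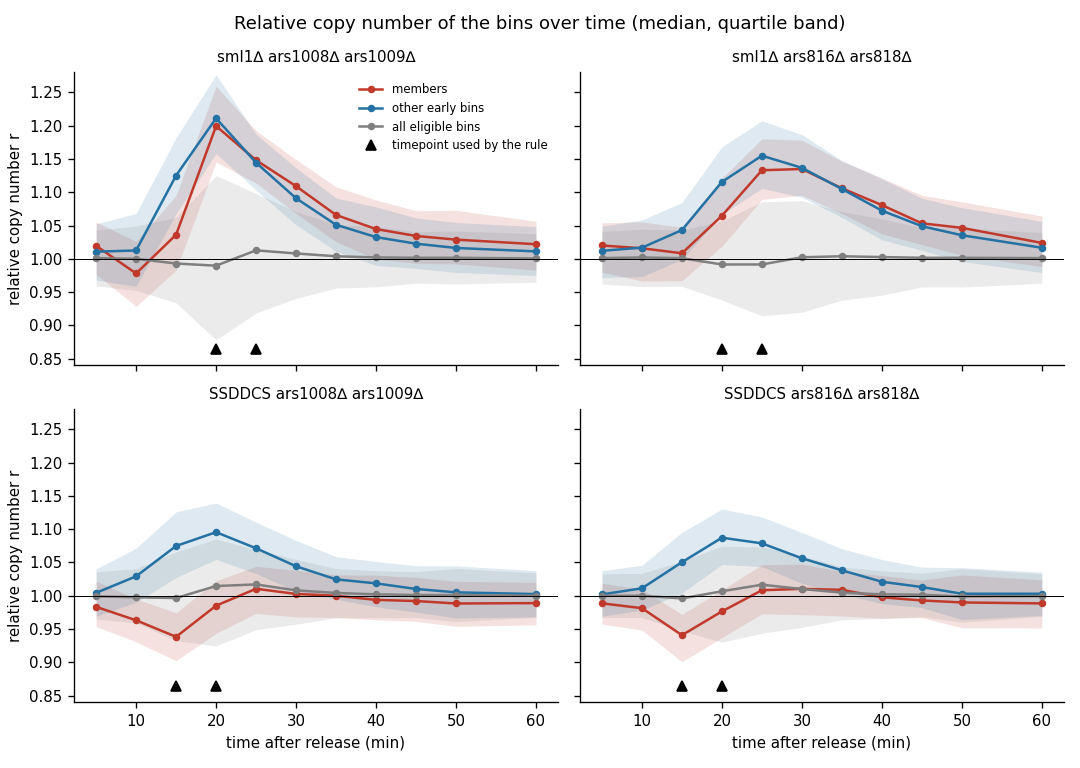
Median relative copy number r (lines, y axis) and quartiles (bands) against time after release in min (x axis) for the members, the other early bins and all eligible bins, 1 panel per strain, with triangles at the timepoints of the rule. Members peak at 1.20 and 1.13 in the sml1∆ strains and dip to 0.938 and 0.941 at 15 min in the SSDDCS strains.

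Samples of similar bulk content give the contrast on the scale of copy number. At a bulk content of 1.45 (sml1∆ ars1008∆ ars1009∆, 20 min) the median copy number of the members was 1.74, and at 1.48 (SSDDCS ars1008∆ ars1009∆, 15 min) it was 1.39. In the other pair it was 1.73 at a bulk content of 1.53 (sml1∆ ars816∆ ars818∆, 25 min) and 1.46 at 1.49 (SSDDCS ars816∆ ars818∆, 20 min). The medians of all eligible bins in these 4 samples lay between 1.44 and 1.52. These are samples of the rule, so the difference in the members is a description of the choice.

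An offset of the members was also present at the end of the time course, and in the sml1∆ strains the other early bins shared much of it. The mean r at 50 and 60 min had a median over the members of 1.03 in both sml1∆ strains. In the SSDDCS strains it was 0.987 and 0.990. For the other early bins the medians were 1.01 and 1.03 in the sml1∆ strains and 1.00 in both SSDDCS strains. For all eligible bins the median was 1.00 in each strain. All timepoints of a strain share 1 G1 sample as the denominator, and a low G1 count raises r at every time. With r taken relative to the same bin at 50 and 60 min (mean of both), the rule chose 574 bins, of which 327 were among the 598 (57.0% of the former and 54.7% of the latter). With the mean at 5 and 10 min, a choice made after the data were seen, it chose 568, of which 337 were shared. Under all 3 denominators 248 bins (41.5% of the members) were chosen.

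The median replication time Trep, the time at which a fitted logistic curve from 1 to 2 reaches 1.5, placed the members in minutes. The fit contains the timepoints of the rule and shares their G1 sample, so it is not independent of the choice. Members had a median Trep of 17.3 min in sml1∆ ars1008∆ ars1009∆ and 17.5 min in SSDDCS ars1008∆ ars1009∆. In the ars816∆ ars818∆ pair the medians were 21.7 and 21.4 min. The median of the difference per bin, SSDDCS minus sml1∆, was 0.3 min (quartiles -1.3 and 1.9) and -0.1 min (quartiles -1.4 and 1.4). The genome around them moved earlier: the medians were -5.5 and -4.2 min over all eligible bins and -3.0 and -2.5 min over the other early bins. In this fit 62.2% and 64.9% of the members differed by 2 min or less, beside 33.1% and 41.6% of the other early bins and 18.8% and 25.0% of all eligible bins.

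A later Trep with SSDDCS was found for 327 members (54.7%) in the ars1008∆ ars1009∆ pair, where 10% of all eligible bins were later, and for 282 (47.2%) in the ars816∆ ars818∆ pair, where 10.5% were. Of the other early bins, 10.9% and 10.4% were later. In rank within a strain, where the earliest bin is at 0 and the latest at 100, the median of the members went from 17.0 to 63.3 in the first pair and from 17.8 to 58.9 in the second, and the rank was later in 586 and 581 of the 598 bins. The medians of the other early bins went from 11.9 to 21.8 and from 11.7 to 22.3. The limits on a and b largely fix these moves in rank, so they are a description of the choice. When the 2 timepoints of the rule were left out of each strain's fit, the median differences of the members were -0.9 and 1.2 min, those of the other early bins -3.4 and -0.9 min, and those of all eligible bins -5.8 and -4.1 min. The sign of the small difference in the members thus changed with the fit in both pairs, and their place above the other early bins did not.

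**Figure D3:**
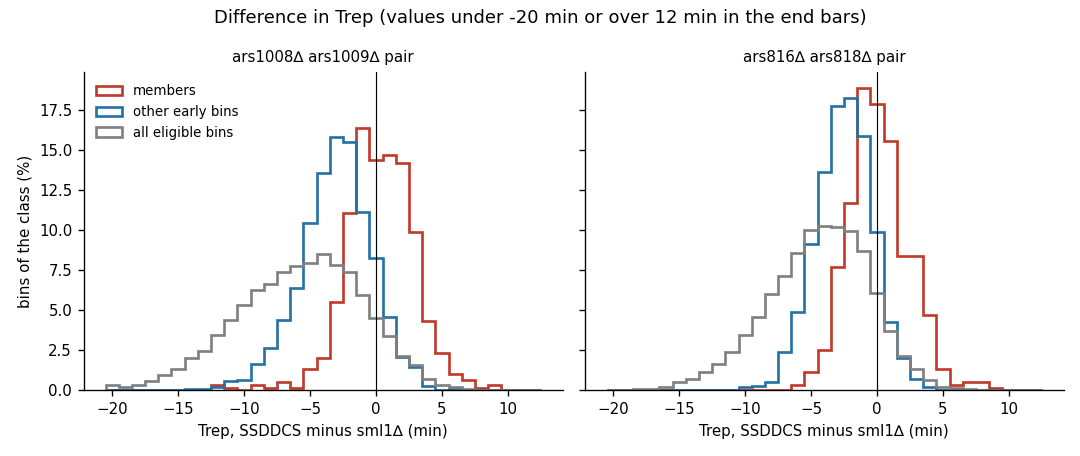
Histograms of the difference in Trep, SSDDCS minus sml1∆, in min (x axis, bars of 1 min) as percent of the bins of each class (y axis) for the 2 pairs of strains. The members centre on 0.3 and -0.1 min, the other early bins on -3.0 and -2.5 min, and all eligible bins reach far to the negative side.

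Of the members, 26 (4.35%) were later by over 2 min in both pairs, beside 58 of all eligible bins (0.526%) and 3 of the other early bins. By the smaller of its 2 delays, the first was the bin at 262001 on XV within SMC5, a subunit of the Smc5/6 complex that acts in recombination and on stalled forks. Its Trep was 18.0 and 20.6 min in the sml1∆ strains and 23.5 and 27.1 min in the SSDDCS strains. The bin at 576001 on XIV, over the histone genes HHT2 and HHF2, had 19.5 and 22.7 min without and 23.4 and 27.9 min with SSDDCS. The bin at 277001 on II, within GAL10, had 19.1 and 22.8 min without and 25.3 and 26.7 min with SSDDCS. These 3 bins fell back by 3.9 to 6.5 min in each pair, while the median bin of the genome advanced by 4.2 min or more. They were named after their values were seen, and all 3 are among the 10 members with the lowest b. Bins on VII, X and XIII, with smaller delays of 4.0 to 4.1 min, ranked between the first and the others named.

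Members were scarce close to origins and, like the other early bins, scarce far from them. Their median distance to the nearest of 352 annotated origins was 11.6 kb (quartiles 8.82 and 14.5), against 4.32 kb for the other early bins and 10.7 kb for all eligible bins. Within 5 kb of an origin were 49 members (8.19%), 56.0% of the other early bins and 26.0% of all eligible bins. Over 20 kb away were 35 members (5.85%), 4.78% of the other early bins and 23.1% of all eligible bins. Position was not used by the rule, but b itself falls with distance from an origin in the whole genome, from a median of 1.10 within 2 kb to 0.933 at 16 to 20 kb. Among early bins the share that were members was 3.0% within 2 kb of an origin (17 of 566), 15.5% at 6 to 8 kb, 51.6% at 10 to 12 kb and 78.9% at 14 to 16 kb (75 of 95). Over 20 kb from any annotated origin it was 25.4% (35 of 138).

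Most members sat between origins that were themselves early. For 583 members both neighbouring origins could be read (mean of the bins within 1 kb). In sml1∆ the median of those origins was 1.18 on the scale of a, and the median difference of a member from the mean of its neighbours was -0.026. With SSDDCS the origins were at 1.10 on the scale of b and the difference was -0.14. For the other early bins these differences were 0.013 and -0.025, and for all eligible bins -0.067 and -0.098. The rule keeps b low in members and high in the other early bins, so the contrast in b is a description of the choice. Both neighbouring origins passed the limit on a for 70.3% of members, 59.3% of other early bins and 29.5% of all eligible bins. The interval between the 2 origins had a median of 39.5 kb for members, 34.1 kb for other early bins and 49.6 kb for all eligible bins, and 47.2% of members lay in its central part (at least 0.3 of the interval from either end), against 17.2% of other early bins and 38.9% of all.

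Members were found in 124 of 319 intervals between annotated origins, and 45 intervals with 5 or more members held 424 of the 590 that lay between 2 such origins. The other early bins, 2100 of which lay between origins, were found in 229 intervals. Intervals with 5 or more bins of the class held 71.9% of members, 92.3% of other early bins and 99.5% of all eligible bins. The fullest 45 intervals of each class held 71.9%, 40.9% and 32.5%. Such shares depend on the number of bins in a class, which differed. The intervals fullest in members were ARS1013 to ARS1014 on X and ARS508 to ARS510 on V, with 21 members each, and ARS605 to ARS606 on VI, with 16.

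Within 25 kb of a centromere lay 160 members (26.8%), 21.8% of the other early bins and 6.94% of all eligible bins, and within 10 kb 16.6%, 8.48% and 2.84%. Early bins as such are concentrated there, since 90.1% of eligible bins within 10 kb of a centromere were early. Of all early bins 21.7% were members. By distance from the centromere the share was 35.1% within 10 kb, 17.5% at 10 to 25 kb, 36.9% at 25 to 50 kb, 23.7% at 50 to 100 kb, 18.7% at 100 to 200 kb, 17.7% at 200 to 400 kb and 10.6% over 400 kb away. The share thus did not change steadily with this distance, and at 10 to 25 kb it was below that of all early bins. The centromere itself lay in a member bin for 10 of 16 chromosomes (IV, VI, VII, VIII, X, XI, XIII, XIV, XV and XVI). In these bins a ranged from 1.09 to 1.33 and b from 0.916 to 0.999. Trep was later with SSDDCS in both pairs for the bins with CEN10 (by 3.5 and 1.4 min) and CEN13 (1.8 and 3.8 min). The same held for the first bin with CEN7 (0.2 and 0.5 min). It was earlier in both pairs for CEN8 (-2.9 and -3.5 min), and the pairs did not share a sign for the rest. The bin with CEN13 had the highest a of all members (1.33) and a b of 0.962, and that with CEN4 stood at 1.31 and 0.996. The 5 other centromeres in early bins, on I, II, III, V and XII, had a b between 1.01 and 1.13. Their bins lay 0.13 to 6.74 kb from an annotated origin, and the member bins with a centromere 5.32 to 13.1 kb. With r over its mean at 50 and 60 min 11 centromeres lay in member bins, and over its mean at 5 and 10 min 6.

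**Figure D4:**
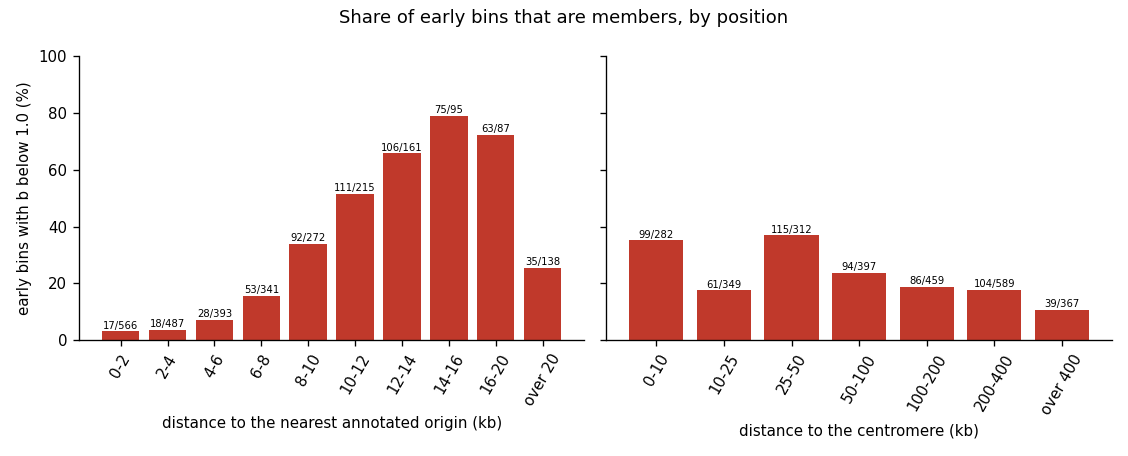
Percent of early bins that are members (y axis) by distance in kb to the nearest annotated origin (left) and to the centromere (right), with members over early bins printed above each bar. The share rises from 3.0% within 2 kb of an origin to 78.9% at 14 to 16 kb, and by distance from the centromere it is 35.1% within 10 kb, 17.5% at 10 to 25 kb and 36.9% at 25 to 50 kb.

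Between chromosomes the share of early bins that were members ran from 11.3% on IV, 12.1% on I and 12.6% on XII to 30.0% on III, 30.5% on V and 30.6% on VI. The largest numbers were 66 on XV, 62 on VII and 61 on V. Chromosome XII had no member within 25 kb of its centromere among 30 early bins there, and VI had 18 of 42.

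The 598 bins formed 332 runs, of which 228 were single bins and 25 held 5 bins or more. The 10 described here were taken by length, and runs of equal length by the lower mean b, a value of the rule. That kept 5 of the 8 runs of 7 bins. The longest, from 427001 to 437000 on X, covers CYR1 (adenylate cyclase), SYS1, COX16, OST1, PRE3 and AVT1. Its mean r in the samples of the rule was 1.32 and 1.19 in sml1∆ ars1008∆ ars1009∆, 1.11 and 1.21 in sml1∆ ars816∆ ars818∆, 0.944 and 1.01 in SSDDCS ars1008∆ ars1009∆, and 0.95 and 0.991 in SSDDCS ars816∆ ars818∆. At 10 min it was 0.948 and 0.977 with SSDDCS, and at 30 min 1.11 and 1.19 without it. Its flanks ARS1014 and ARS1015, printed above, had a b of 1.09 and 1.12, so with SSDDCS the run was a trough between 2 peaks, and without it (a of 1.30 and 1.21 at the origins and 1.21 in the run) it was nearly level with the second.

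The run of 9 bins from 286001 to 295000 on XV, between ARS1511 and ARS1512, holds TAT2 (the tryptophan permease), TLG2 (an endosomal SNARE), CMK2 (a calmodulin-dependent kinase) and the tyrosine tRNA gene SUP3. Its mean a was 1.15 and its mean b 0.969. The run of 7 bins from 261001 to 268000 on the same chromosome, on the other side of ARS1511, holds SMC5, MSE1, OPI10 and SIL1, with a mean a of 1.14 and a mean b of 0.927. ARS1511 between them had an a of 1.26 and a b of 1.11.

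On V, the run from 78001 to 86000 lies between ARS507 and ARS508 and holds CYC7 (the second isoform of cytochrome c), RAD23 (nucleotide excision repair), ANP1 and HYP2 (the translation factor eIF5A). Its mean r was 1.26, 1.14, 1.04 and 1.11 in the sml1∆ samples and 0.901, 0.961, 0.916 and 0.946 in the SSDDCS samples. ARS507, whose consensus match is printed above, had a b of 1.14 and ARS508 one of 1.07. The run from 132001 to 139000 lies on the other side of ARS508, beside ARS510, and holds GLC3 (the glycogen branching enzyme) and GCN4 (the activator of amino acid biosynthesis genes), with a mean a of 1.13 and a mean b of 0.943.

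On II, the run from 270001 to 278000 begins right of ARS209 and holds KAP104 (a nuclear import receptor), GAL7 and GAL10, 2 enzymes of galactose catabolism whose genes are strongly transcribed in the galactose medium of all 4 strains. Its mean r was 1.21, 1.17, 1.08 and 1.14 without SSDDCS and 0.936, 0.943, 0.952 and 0.935 with it. Unlike the run on X it was still below 1.0 with SSDDCS at 25 min (0.976 and 0.929) and at 30 min (0.962 and 0.952). So was the run from 261001 on XV, at 0.988 and 0.991, then 0.971 and 0.993. The runs from 132001 on V and 394001 on IX were below 1.0 in both strains at 25 min. Trep of the run over the galactose genes rose from 16.9 to 18.6 min and from 21.6 to 23.7 min. The run from 227001 to 234000, beside ARS208 and 4.76 kb from the centromere, holds UTP20, a component of the small subunit processome, with a mean a of 1.20 and a mean b of 0.949. The SSDDCS strains carry the GAL1-10 promoter at 3 further loci, and reads from those copies cannot be told apart from the native promoter. The native promoter lies beyond the end of GAL10 at 278352, outside the run that ends at 278000.

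On VI, the run from 144001 to 151000 surrounds CEN6 and holds SPB4, DEG1, LOC1 and NIC96 (a nucleoporin). Its mean b of 0.920 was the lowest of the 10 runs, which were taken partly by this value, with 0.858 at 15 min in SSDDCS ars1008∆ ars1009∆, and its r at 20 min differed between the sml1∆ strains, at 1.30 and 0.980. On XII, the run from 352001 to 360000 lies within REA1, the large AAA ATPase of ribosome assembly, with a mean a of 1.13 and a mean b of 0.974. On IX, the run from 394001 to 401000 holds the noncoding RNAs ICR1 and PWR1 upstream of the flocculin gene, SEC11 and DAL81, with a mean a of 1.12 and a mean b of 0.948.

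Over these 10 runs the mean Trep was later with SSDDCS in both pairs in 5, earlier in both in 2, and of opposite sign in 3. Over all 13 runs of 7 bins or more it was later in both in 6, earlier in both in 2 and of opposite sign in 5. The largest difference among the 10 was 2.80 min, for the run around CEN6 in the ars1008∆ ars1009∆ pair, and the same run gave -1.77 min in the other pair. With r over its mean at 50 and 60 min, between 4 and 8 bins of each run were still chosen, and none was lost from the run around CEN6, the first run on V and the run beside ARS208. With the mean at 5 and 10 min it was between 5 and 8 bins, among them 5 of the 10 bins on X.

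**Figure D5:**
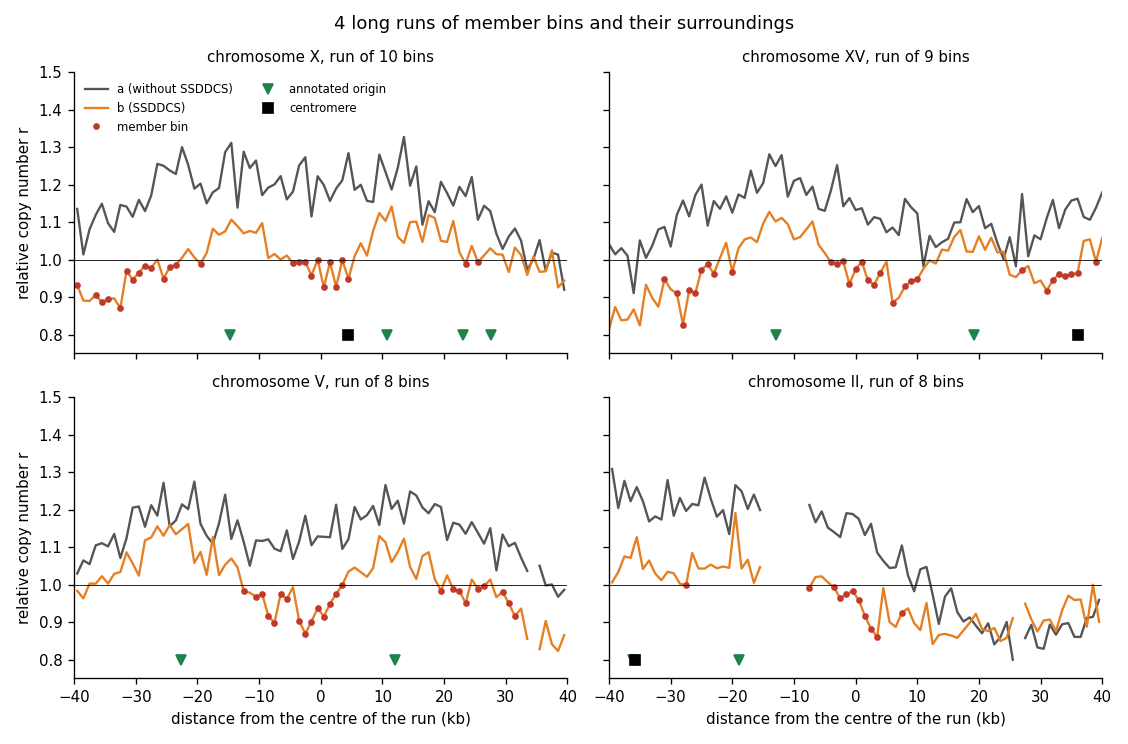
Relative copy number r (y axis) against distance in kb from the centre of the run (x axis) for 4 long runs (the runs of 10 and 9 bins, and the 8-bin runs on V and II), with a in grey, b in orange, member bins as red points, annotated origins as triangles and centromeres as squares. Without SSDDCS the run on X averages 1.21 between its origins, and with SSDDCS it dips to a mean of 0.973 between origins at 1.09 and 1.12.

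The 10 members with the lowest b ran from 0.827 to 0.860. The lowest was the SMC5 bin on XV (262001), with r of 1.19, 1.13, 1.09 and 1.23 in the sml1∆ samples and 0.800, 0.858, 0.822 and 0.828 in the SSDDCS samples. It was followed by the bins at 859001 on VII (QCR9 and UBR1, b of 0.831) and at 576001 on XIV (HHT2 and HHF2, 0.837). The next were 130001 on V (VAC8), 440001 on VII (CGR1), 126001 on V (NPP2 and EDC3), 282001 on XI (RRP14 and TEF4), 463001 on VII (KAP122), 277001 on II (GAL10) and 219001 on II (PDR3). None of these 10 lay within 8 kb of an annotated origin, and the one on XI was 47.3 kb from the nearest.

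Only 6 members overlapped an annotated origin (1.0%, against 8.16% of other early bins and 3.72% of all eligible bins). These are ARS427, ARS604, ARS814, ARS921, ARS1016 and ARS1221. ARS427, ARS814, ARS921 and ARS1221 are annotated as putative, without a plasmid assay, and ARS604 as extremely inefficient. ARS427 had the highest a of the 6 (1.23) with a b of 0.972, and its Trep was 20.3 min in sml1∆ ars816∆ ars818∆ and 28.0 min in SSDDCS ars816∆ ars818∆, but 14.3 and 14.7 min in the other pair.

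Genes of several fixed lists overlapped member bins. Of the 5657 protein-coding genes with an eligible bin 524 did (9.26%), which is 30.3% of the 1728 that overlapped an early bin. Of the galactose genes 3 of 7 did (GAL7, GAL10 and GAL80, the repressor of the pathway), and 5 of the 7 overlapped an early bin. Such counts depend on gene length and on neighbours, as GAL7 and GAL10 are adjacent. Of the core histone genes 2 of 8 did, the adjacent pair HHT2 and HHF2 for histones H3 and H4, and all 8 overlapped an early bin. Of fork and checkpoint genes 3 of 16 did, with 5 in early bins: MRC1, the checkpoint mediator at forks, CTF4, which links polymerase alpha to the helicase, and RNR2, a small subunit of ribonucleotide reductase. Of meiosis genes 3 of 12 did (REC8, HOP1 and RED1), with 7 in early bins. Of forkhead and timing factors CDC7 did (1 of 8, with 5 in early bins), and of over-expressed and marker loci LEU2 (1 of 9, with 4 in early bins). Of cytosolic ribosomal protein genes 10 of 131 did (7.63%), which is 27.8% of the 36 in early bins. None of 14 origin licensing genes (5 in early bins) or 16 glycolytic genes (9 in early bins) overlapped a member. The LEU2 bins at 91001 and 92001 on III had b of 0.916 and 0.938, and there the native locus and the marker of the inserted Sld7 and Cdc45 cannot be told apart.

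Sequence content set the members little apart. Median GC content was 37.6%, against 37.8% in other early bins and 37.9% in all eligible bins, and the median coding share was 76.7%, 75.8% and 79.1%. An ARS consensus match lay in 4.52% of members, 8.48% of other early bins and 6.19% of all. The forkhead motif (GTAAACA or ATAAACA, both strands), bound by Fkh1 and Fkh2 at many early origins, lay in 36.5%, 38.4% and 37.0%. A tRNA gene overlapped 4.01%, 5.1% and 2.53%, and an LTR or Ty element 5.02%, 4.91% and 2.52%.

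The 2 pairs of strains give the same rule separate readings. With the ars1008∆ ars1009∆ pair alone the rule chose 694 bins, and in the other SSDDCS strain 461 of them (66.4%) had a b below 1.0, beside 28.8% of the bins early in the first pair and 51.2% of all eligible bins. With the ars816∆ ars818∆ pair alone it chose 704, of which 366 (52.0%) were below 1.0 in SSDDCS ars1008∆ ars1009∆, beside 20.3% of its early bins and 48.8% of all. Here the strains and their G1 samples are separate, so the reading does not contain the values that chose the bins. The medians of b in the strain not used were 0.973 and 0.995. Chosen in both pairs were 229 bins (33.0% and 32.5% of the 2 lists). The other pair chose 16.3% of the bins early in the first pair and 13.4% of those early in the second. Of all eligible bins the 2 shares were 6.39% and 6.3%. All 229 bins were members, which averaging the 2 pairs makes nearly certain. Their median distance to an origin was 12.4 kb, 29.3% lay within 25 kb of a centromere, and their median differences in Trep were 1.1 and 0.6 min.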

How the data were processed

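Per the labels and the methods, the authors prepared TruSeq Nano libraries from genomic DNA, mapped the reads to sacCer3 (Bowtie2 2.3.4, SAMtools 1.7.2 and bedtools 2.26.0 in the submitters' processing notes) and counted them in 1-kb bins. The authors deposited a ratio per bin, the timepoint over the G1 sample of the strain, scaled to bulk DNA content from flow cytometry, and that bulk content as a second ratio. An error in it shifts all bins of a sample together. G1 samples were used only as the denominator. Samples were grouped by strain and time from their titles.

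From the ratios, r, the rule and Trep (logistic curve from 1 to 2 by least squares over a grid of 0.1 min, bins with at least 6 values) were computed with Python 3.11.15, numpy 2.4.6 and pandas 2.3.3. The fit was checked on simulated data with an assumed noise and a planted delay longer than any named here. Genes, origins and centromeres came from RefSeq R64. The members, gene lists and comparisons were chosen with earlier results of these data known. Bins named are those of the 10 longest runs (ties by the lower mean b), the 10 with the lowest b, the 3 on either side of each limit and members in the gene lists; bins later in both pairs and those with an origin or centromere were named after their values were seen. Limits, scale, denominator, smoothing, curve and samples were varied.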

Additional observations from a re-analysis of the deposited data

Results flagged for a closer look

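The median difference in Trep of the members between the SSDDCS and sml1∆ strains had opposite signs in the 2 pairs of strains, 0.3 min in the ars1008∆ ars1009∆ pair and -0.1 min in the ars816∆ ars818∆ pair. The difference between the pairs was not tested, and both values are small against the quartiles of the members (-1.3 and 1.9 min, and -1.4 and 1.4 min). By the first crossing of 1.5 the values were 0.383 and -0.644 min, and without the timepoints of the rule -0.9 and 1.2 min.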

How the results depend on the processing

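Pairing by replicate number could not be tried, since every sample is replicate 1. The number of members was 598, and 217 with a limit on b of 0.95 and 1248 with a looser limit, higher by 0.05; under the other alternatives it lay between 421 and 797. The 2 percentages of members with a later Trep (54.7% in the ars1008∆ ars1009∆ pair and 47.2% in the ars816∆ ars818∆ pair) moved with most choices, given here in that order. They were 62.0% and 52.7% with the limit on a at the 80th percentile, 47.6% and 42.8% at the 70th, 71.9% and 62.2% with b below 0.95, and 37.7% and 32.7% with the looser limit. They were 40.6% and 31.5% with r over its mean at 50 and 60 min, 39.1% and 34.7% with r over its mean at 5 and 10 min, and 46.5% and 38.8% with a running mean over 3 bins. By the first crossing of 1.5 they were 58.9% and 36.8%, 53.5% and 38.6% where the upper asymptote was free, and without the timepoints of the rule 41.6% and 59.2%. Under these 3 curves the shares of the other early bins were 9.04% and 5.1%, 7.7% and 5.29%, and 18.8% and 41.0%. Those of all eligible bins were 12.5% and 8.42%, 8.79% and 7.48%, and 13.2% and 19.6%. By rank, which the limits on a and b largely fix, the percentages of members were 98.0% and 97.2%. For delays over 2 min they were 22.9% and 18.2%, beside 3.68% and 3.18% of all eligible bins. Leaving out 1 sample of the rule at a time gave 47.3% to 60.6% and 42.7% to 52.0%. The causes of these moves were not tested. The share within 5 kb of an origin was 0.922% with b below 0.95, 18.3% with the looser limit and 3.92% with a running mean, and it was 2.84% within 2 kb and 34.8% within 10 kb. Bins chosen in the ars1008∆ ars1009∆ pair were below 1.0 in the other strain in 82.7% (limit on b of 0.95), 51.1% (looser) and 69.9% (r over its mean at 50 and 60 min), and those chosen in the ars816∆ ars818∆ pair in 73.7% (0.95) and 36.2% (looser). Centromeres in member bins numbered 6 with r over its mean at 5 and 10 min. The longest run was 18 bins when members up to 1 bin apart were joined and 26 bins up to 2 apart. Choices of denominator at 5 and 10 min, the fit without the timepoints of the rule and the counts near centromeres were added after seeing the data. The depth of the libraries is unknown, so the counting error of a 1-kb bin cannot be given.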
